A study of Mus musculus with 745 samples.

Results

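Insulin, insulin-like growth factors (IGFs) and leptin reach the brain from the blood, and the endothelial cells of brain vessels carry receptors that bind them. The 7 genes described here comprise 4 receptor genes (Insr, Igf1r, Igf2r and Lepr), the adaptor genes Irs1 and Irs2, and Igfbp7, which encodes a secreted IGF-binding protein of the vessel wall. They were chosen by symbol, and all 7 were found among the 20607 gene symbols of the count table. The series concerns how proteins of the circulation enter the brain and how age changes this. Its samples here were 745 single cells, primary endothelial cells sorted by FACS from dissociated brains of mice aged 3 months. Sorting markers, sex, strain and the number of mice were not given in the sources used here. All cells carried the same age label, and no treatment was compared. Title prefixes split them into 3 sets: Young1 (30.2% of cells), Young2 (34.6%) and AY_Y3 (35.2%). What a set stands for (animal, pool or plate) is not stated, so the spread between sets may be technical.

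INSR and IGF1R are tyrosine kinase receptors. On ligand binding they recruit the IRS adaptors, which pass the signal to PI3K, AKT and mTOR. IGF2R, the cation-independent mannose-6-phosphate receptor, takes IGF2 and lysosomal enzymes into the cell and does not signal as a kinase. The leptin receptor signals through JAK2 and STAT3 in its long form, while short forms are known from brain microvessels and the choroid plexus and have been linked to leptin uptake. IGF-binding proteins hold IGFs outside the cell, although IGFBP7 binds IGFs more weakly than the classical members of its family.

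Each cell was its own library, with 52819 to 2421434 counts and set medians of 757949 in Young1, 713031 in Young2 and 411397 in AY_Y3. A cluster of 25 cells with 9 of 10 pericyte markers raised was left out, and the remaining 720 cells were treated as endothelial. Summed counts of the 10 endothelial markers in these cells were 22691 to 28905 CPM in every set and class, CPM being counts scaled to the same total in each cell. Each endothelial cell was scored on Bmx and Gkn3 (arterial), Nr2f2 and Il1r1 (venous), and Cxcl12 and Rgcc (capillary), and placed in the class of the leading pair. Arterial-marker cells were 15.4% of endothelial cells (22, 48 and 41 cells in Young1, Young2 and AY_Y3), venous-marker cells 18.3% (39, 45 and 48) and capillary-marker cells 37.2% (268 cells), and the rest lay between classes. The classes are ranges of a score and not cell types: 44 cells had a lead within 0.1 of the margin of 0.5. Markers of other cells were uneven over the classes. The 10 pericyte markers summed to 41.8 to 424 CPM per set in arterial-marker cells, 645 to 866 CPM in venous-marker cells and 331 to 448 CPM in capillary-marker cells. The 7 smooth muscle markers summed to 193.01 to 911 CPM, 24.4 to 695 CPM and 38.2 to 54.2 CPM in the same order. Astrocyte markers summed to 68.3 to 237.08 CPM, 69.6 to 304 CPM and 200.6 to 455 CPM. Oligodendrocyte markers summed to 91.1 to 307 CPM, 56.4 to 158.96 CPM and 57.5 to 582 CPM, and to 3617 CPM in AY_Y3 cells between classes. Of the 720 cells, 94 were above 1000 CPM on summed pericyte markers, 48 on oligodendrocyte, 36 on astrocyte and 23 on smooth muscle markers. A cell can count for more than 1 type. The part of these transcripts in the differences below was not tested except where values without such cells are given.

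Detection separated the 7 genes widely. Igfbp7 had a count in 98.6% of the 720 endothelial cells (exact Clopper-Pearson 95% interval 97.5 to 99.3), Igf1r in 87.4% (84.7 to 89.7) and Insr in 48.3% (44.6 to 52.1). Igf2r was found in 9.72% of cells (7.66 to 12.1) and Lepr in 7.64% (5.81 to 9.83), intervals that overlap. Irs1 had a count in 7 cells (0.972%, 0.392 to 1.99), and Irs2 had 1 count in 1 cell (0.139%, 0.00352 to 0.771). The counts carry no molecular identifiers, and these intervals cover counting error only. With every cell thinned to 50000 counts the shares were 98.1% for Igfbp7, 81.7% for Igf1r, 39.7% for Insr, 5.69% for Igf2r, 6.25% for Lepr, 0.694% for Irs1 and 0% for Irs2. Thinning exchanged the places of Igf2r and Lepr and left the other positions as they were. Among the 25 cells with pericyte markers, Igfbp7 and Igf1r had a count in 100% and Insr in 64%, while Igf2r was detected in 40% against 9.72% of endothelial cells. After thinning Igf2r was found in 28% of them, against 5.69%. These 25 cells averaged 22850 CPM of pericyte and 15516 CPM of endothelial markers, so their values are not those of pericytes alone.

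**Figure D1:**
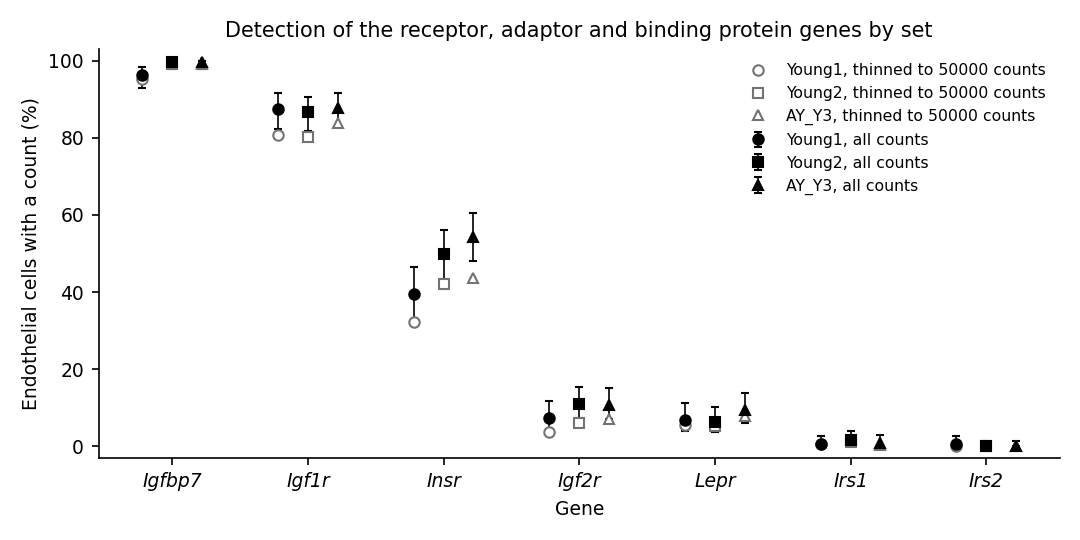
Share of endothelial cells with at least 1 count of each gene (vertical axis, percent) in Young1, Young2 and AY_Y3. Filled symbols are all counts with exact 95% intervals, open symbols cells thinned to 50000 counts; Igfbp7 and Igf1r lie above 80% in every set, and Irs1 and Irs2 near 0.

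Set by set, Insr varied more in detection than Igf1r did. Insr had a count in 39.6% of Young1 cells, 49.8% of Young2 cells and 54.3% of AY_Y3 cells, whereas Igf1r had one in 87.6%, 86.7% and 87.8%. After thinning, Insr stood at 32.3%, 42.2% and 43.7% in the same sets, so Young1 was lowest at equal depth too. Corrected for exon length (annotation GENCODE vM21, mean ± SD of 3 sets), the level of Igfbp7 was 1059 ± 51.2 CPM per kb and that of Igf1r 60.4 ± 3.22. Insr followed at 14.5 ± 1.72 CPM per kb, Lepr at 1.45 ± 0.73, Igf2r at 0.54 ± 0.36 and Irs1 at 0.128 ± 0.161. Lepr exceeded Igf2r within each set, but the lowest Lepr value (0.927 CPM per kb, AY_Y3) and the highest Igf2r value (0.918, Young2) nearly met. Igf2r exceeded Irs1 within each set, while their ranges over sets overlapped. The steps above Lepr were each many times the spread between sets. Irs2, with its single count, lay at 0.00028 CPM per kb.

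Igf1r, the IGF1 receptor, was lower in arterial-marker cells than in either other class. Its mean over cells was 385.0, 213.3 and 311.7 CPM in arterial-marker cells of Young1, Young2 and AY_Y3, against 605.0, 620.0 and 654.1 CPM in venous-marker cells and 815.5, 1112.9 and 992.1 CPM in capillary-marker cells. The 3 classes did not overlap: the highest arterial value lay below the lowest venous value, and the highest venous value below the lowest capillary value. Means over sets were 303 ± 86.2 CPM (arterial), 626 ± 25.2 CPM (venous) and 973 ± 150 CPM (capillary; SD, n = 3 sets each). In edgeR's quasi-likelihood fit to counts summed per set and class, with the set as a block, Igf1r fell by 1.65 ± 0.18 on the log2 scale (fitted value ± SE) in arterial-marker against capillary-marker cells (Benjamini-Hochberg adjusted p = 0.0170). It also fell, by 1.17 ± 0.18, in arterial-marker against venous-marker cells (adjusted p = 0.0295). Between venous-marker and capillary-marker cells its log2 difference was -0.48 ± 0.18 and did not pass (adjusted p = 1.0; unadjusted p = 0.030).

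Igf1r was the single member called of 5 tested between arterial-marker and capillary-marker cells, where 41 of 9030 genes tested (0.454%) passed, 12 higher and 29 lower. Between arterial-marker and venous-marker cells 2 of the 5 members passed, against 1.32% of the 9030 genes (61 higher and 58 lower), and between venous-marker and capillary-marker cells 0 of 5, against 0 of 9030 (0%). For that last comparison 401 genes had an unadjusted p under 0.05, and DESeq2 called 2.23% of genes and limma 8.41%. Counts of called genes rested on all 3 sets: 13, 1 and 1 genes passed between arterial-marker and capillary-marker cells without Young1, Young2 and AY_Y3, and 41, 4 and 1 between arterial-marker and venous-marker cells. Irs1 and Irs2 failed the filter for low counts and were not tested.

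The arterial difference of Igf1r kept its direction but not its call in every fit. Leaving out Young1, Young2 or AY_Y3 gave log2 differences of -1.65, -1.44 and -1.86 against capillary-marker cells (adjusted p = 0.108, 0.345 and 0.183). Against venous-marker cells they were -1.09, -1.09 and -1.33 (adjusted p = 0.175, 0.234 and 0.152). Without the cells above 1000 CPM on markers of another cell type, the log2 differences were -1.32 (adjusted p = 0.204) and -0.71 (adjusted p = 0.412), and without the cells highest in mural markers they were -1.66 (0.0210) and -1.12 (0.0380). The first of these fits had 16, 38 and 32 arterial-marker cells in Young1, Young2 and AY_Y3. It had 31, 27 and 34 venous-marker cells and 71, 49 and 85 capillary-marker cells in the same sets. A few cells carried much of the arterial signal: the top 5 cells held 41.4% of the Igf1r counts of that class, against 15.8% of venous and 9.36% of capillary counts. The median arterial-marker cell had 30.9 CPM of Igf1r, the median venous-marker cell 542 CPM and the median capillary-marker cell 801 CPM.

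**Figure D2:**
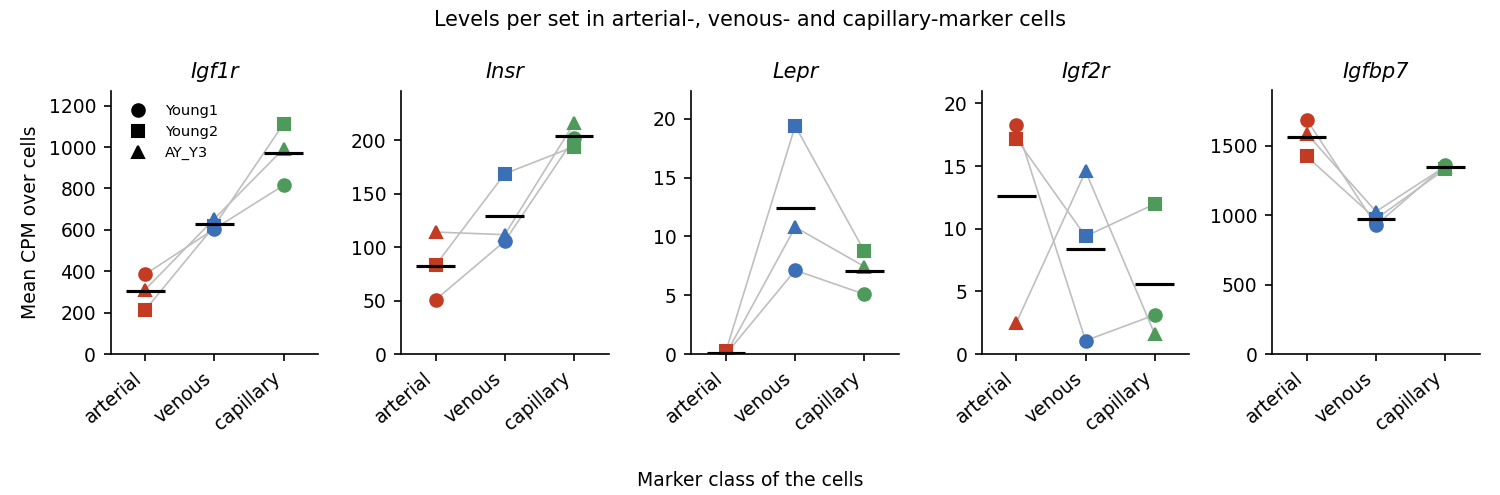
Mean CPM over cells (vertical axes, separate scales from 0) of 5 genes in arterial-, venous- and capillary-marker cells; each symbol is 1 set, grey lines join a set and black bars are means of 3 sets. The classes do not overlap for Igf1r and Igfbp7, and Lepr is at or near 0 in arterial-marker cells of each set.

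Insr, the insulin receptor, had its highest mean in capillary-marker cells, but the difference did not pass. Its mean over cells was 50.8, 83.2 and 114.04 CPM in arterial-marker cells, 105.6, 168.6 and 111.7 CPM in venous-marker cells and 201.6, 194.04 and 215.8 CPM in capillary-marker cells of Young1, Young2 and AY_Y3. Arterial and venous values overlapped, and every capillary value lay above both. The log2 difference between arterial-marker and capillary-marker cells was -1.64 ± 0.38 (adjusted p = 0.163), close to that of Igf1r with a wider SE. Arterial-marker cells of Young1 held only 523 Insr counts, in 4 of 22 cells. The log2 difference was -0.81 ± 0.37 between arterial-marker and venous-marker cells (adjusted p = 0.466) and -0.83 ± 0.37 between venous-marker and capillary-marker cells (adjusted p = 1.0). For arterial-marker against capillary-marker cells DESeq2 on the same sums passed (adjusted p = 0.000352), as did classes taken from clusters of segment markers (0.0487). For arterial-marker against venous-marker cells limma on mean log2 values passed, at -1.60 (adjusted p = 0.0231).

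Share and level of Insr went different ways between veins and capillaries. Insr had a count in 40.5% of arterial-marker cells, 65.9% of venous-marker cells and 50.4% of capillary-marker cells, and after thinning in 34.2%, 50.8% and 43.3%. Among cells with a count the median was 137.8 CPM (arterial), 121.7 CPM (venous) and 261.5 CPM (capillary). Venous-marker cells thus had a count more often than capillary-marker cells, and at a lower median. After thinning the exact 95% intervals of the 2 shares overlapped (41.9 to 59.6 and 37.3 to 49.4). By set (Young1, Young2 and AY_Y3), these medians were 108.5, 155.4 and 72.6 CPM in venous-marker cells. In capillary-marker cells they were 267.0, 157.6 and 256.6 CPM, so that the classes nearly met in Young2. No order is read from the share. Venous-marker cells also had the most genes per cell at equal depth, with a median of 2267 genes at 50000 counts, against 1878 in arterial-marker and 1552 in capillary-marker cells. The part of this in the Insr share was not tested.

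**Figure D3:**
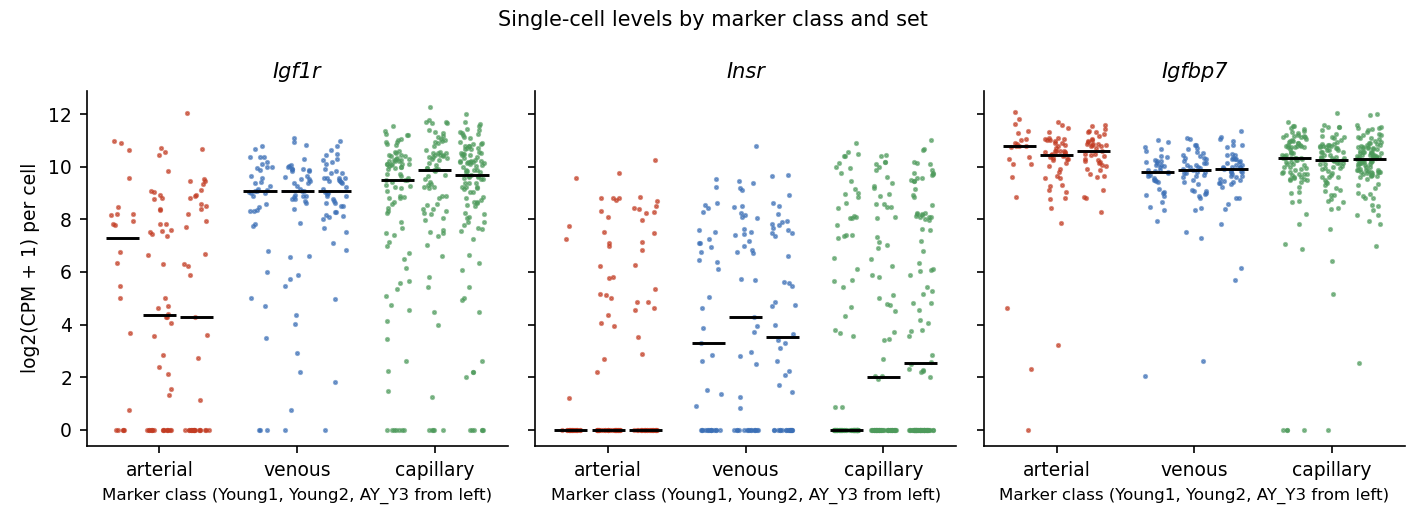
Levels in single cells, as log2(CPM + 1) on the vertical axis, by marker class and set; each dot is 1 cell and black bars are medians. Igf1r fills the range from 0 upward in arterial-marker cells and is mostly high elsewhere, Insr is split between 0 and high values in every class, and Igfbp7 is high in nearly all cells.

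Lepr, the leptin receptor gene, was almost undetected in arterial-marker cells. It had 9 counts there, all in 1 cell (0.901% of the class, exact 95% interval 0.0228 to 4.92), against 15 venous-marker cells (11.4%, 6.50 to 18.05) and 25 of 268 capillary-marker cells (9.33%, 6.13 to 13.5). Mean levels were 0, 0.26 and 0 CPM in arterial-marker cells, 7.12, 19.4 and 10.8 CPM in venous-marker cells and 5.09, 8.74 and 7.44 CPM in capillary-marker cells of Young1, Young2 and AY_Y3. Arterial values lay below all others, and venous and capillary values overlapped. The edgeR test did not pass for arterial-marker against capillary-marker cells (adjusted p = 0.143) or against venous-marker cells (adjusted p = 0.0814), while DESeq2 gave 1.09e-06 and 4.12e-07. DESeq2 also called a larger share of all genes than edgeR in both comparisons. Of 16 alternatives, Lepr passed in 1 against capillary-marker and 2 against venous-marker cells. The fits rest on 2 sums of 0, and their fold changes are not given. Few cells held the Lepr counts elsewhere too: the top 5 cells had 85.7% of them among venous-marker cells and 73.9% among capillary-marker cells. Counts per gene cannot separate the long and short receptor forms, nor, where exons are shared, Lepr from the overlapping gene Leprot.

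Igf2r, the receptor that internalizes IGF2, had no order of classes that held in all 3 sets. It had 18.3, 17.2 and 2.51 CPM in arterial-marker cells, 1.07, 9.39 and 14.6 CPM in venous-marker cells and 3.12, 11.97 and 1.58 CPM in capillary-marker cells of Young1, Young2 and AY_Y3. All 3 classes overlapped. Young1 and Young2 ranked arterial over capillary over venous cells, and AY_Y3 put venous cells highest. These ranks rest on few cells: the top 5 held 94.2% to 100% of the Igf2r counts in each set and class. The highest arterial-marker cell had 401 CPM in Young1 and 653 CPM in Young2. Arterial lay above capillary means in each set, but by CPM of summed counts the Young2 values were 6.69 CPM in arterial-marker and 13.4 CPM in capillary-marker cells. The log2 difference was -0.07 ± 1.08 for arterial-marker against capillary-marker cells (adjusted p = 0.998), a wide error that leaves sizeable differences undetectable. Igf2r lies opposite the antisense transcript Airn, and use of strand in counting is not given. Airn itself had counts in 4 of 720 endothelial cells.

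The adaptor genes gave almost no counts. All 7 endothelial cells with Irs1 were arterial-marker (6 cells) or venous-marker cells (1 cell), and 0 of 268 capillary-marker cells had a count, which allows a share of up to 1.12% by a floor of 3 counts and 1.37% by the exact 95% interval. Those 6 arterial cells came from each set, 1 from Young1, 3 from Young2 and 2 from AY_Y3, and were 5.41% of the class (exact 95% interval 2.01 to 11.4). Irs1 levels in the 7 cells ran up to 506 CPM, with a median of 13.5 CPM. Irs2 was seen once, with 1 count in a capillary-marker cell of Young1, while 1 of the 25 cells with pericyte markers held 693 counts of it.

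Igfbp7 was highest in arterial-marker cells, where Igf1r was lowest, and lowest in venous-marker cells. Its mean over cells was 1688, 1424 and 1588 CPM in arterial-marker cells, 928, 972 and 1027 CPM in venous-marker cells and 1359, 1333 and 1350 CPM in capillary-marker cells of Young1, Young2 and AY_Y3. No pair of classes overlapped, and the capillary values lay closest together. Means over sets were 1567 ± 133.3 CPM (arterial), 976 ± 49.4 CPM (venous) and 1348 ± 13.3 CPM (capillary; SD, n = 3 sets each). Igfbp7 rose by 0.65 ± 0.10 on the log2 scale in arterial-marker against venous-marker cells (edgeR, adjusted p = 0.0297). The difference was 0.22 ± 0.10 between arterial-marker and capillary-marker cells (adjusted p = 0.570) and -0.43 ± 0.10 between venous-marker and capillary-marker cells (adjusted p = 0.559), and neither passed. Unadjusted p in the same edgeR fit was 0.064 and 0.0036. The venous-against-capillary difference kept its direction in 16 of 16 alternatives and passed in 1.

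The call for Igfbp7 was lost on leaving out any 1 set, with log2 differences of 0.60 without Young1 (adjusted p = 0.200), 0.67 without Young2 (0.252) and 0.69 without AY_Y3 (0.261). Pericytes and smooth muscle also express Igfbp7, and the 25 cells with pericyte markers, which carried endothelial markers too, averaged 1661 CPM. Without the cells highest in mural markers the arterial-over-venous difference was 0.72 (adjusted p = 0.0324), and without all cells above 1000 CPM on another type's markers it was 0.75 (adjusted p = 0.0730). Within arterial-marker cells, those with a Gkn3 count had 1938, 1565 and 1682 CPM of Igfbp7 in Young1, Young2 and AY_Y3, and those without one had 1479, 1283 and 1489 CPM. The cells with Gkn3 were higher within each set, a description with no test.

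**Figure D4:**
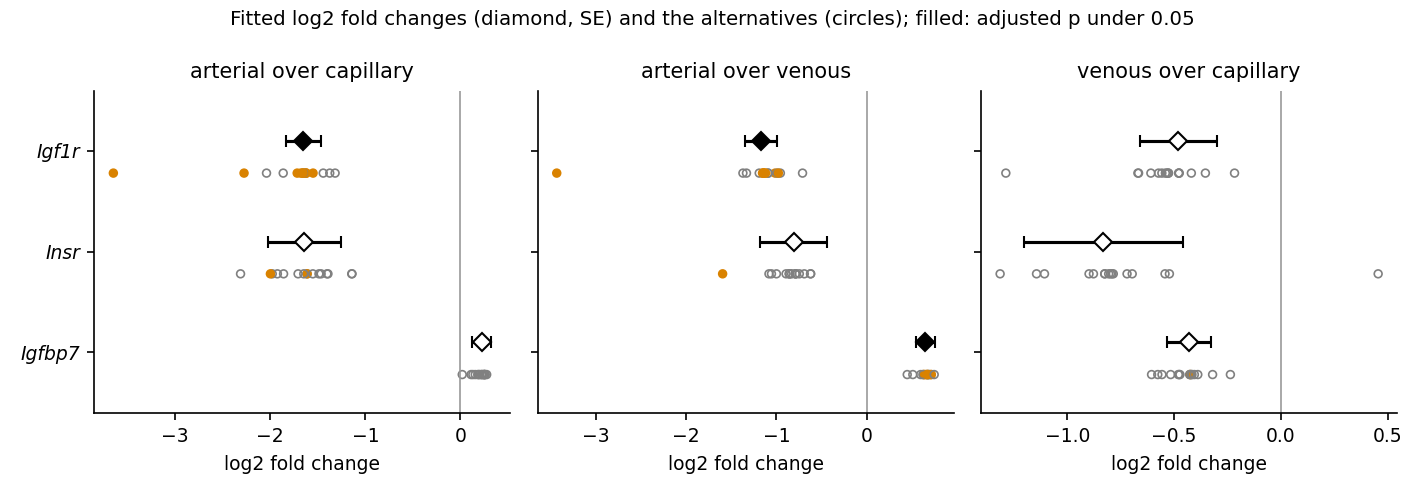
Fitted log2 fold changes of Igf1r, Insr and Igfbp7 for the 3 comparisons (horizontal axes). Diamonds with bars are the fit with its SE, circles the 16 alternatives, and filled symbols have an adjusted p under 0.05; the arterial differences of Igf1r and Insr stay below 0, and those of Igfbp7 above 0, in all alternatives.

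Along single markers, Igf1r and Igfbp7 stood on opposite sides of the arterial ones. Over cells within a set, the Spearman correlation of Igf1r averaged -0.29 with Bmx and -0.17 with Gkn3, 0.03 with Nr2f2 and -0.03 with Il1r1, and 0.28 with Cxcl12 and 0.18 with Rgcc. The arterial correlations were negative and the capillary ones positive in each of the 3 sets. Cells with a Bmx count averaged 376, 378 and 446 CPM of Igf1r in Young1, Young2 and AY_Y3, against 746, 880 and 901 CPM in cells without one. Igfbp7 correlated at 0.16 with Bmx and 0.17 with Gkn3, at -0.16 with Nr2f2 and -0.15 with Il1r1, and at 0.15 with Cxcl12, with the same sign in each set. With Rgcc, the other capillary marker, the mean was 0.05 and the sign differed between sets (-0.05 to 0.12). Insr correlated at 0.11 with Nr2f2, 0.14 with Il1r1, 0.06 with Rgcc and -0.11 with Bmx, with the same sign in each set. Its signs were mixed for Gkn3 (mean -0.04) and Cxcl12 (mean 0.01). Cells with a count of either venous marker had an Insr count more often than cells without one, in each set. Their mean Insr level did not follow. With and without Nr2f2 it was 105.5 against 150.2 CPM in Young1, 167.1 against 141.8 in Young2 and 104.5 against 169.1 in AY_Y3. For Il1r1 the mean was also lower in Young1 and AY_Y3 and higher in Young2. Lepr correlated negatively with both arterial markers in each set, at -0.11 with Bmx and -0.05 with Gkn3. Each correlation was over all endothelial cells of a set (30.1% of the 720 cells in Young1, 34.6% in Young2 and 35.3% in AY_Y3). The cells behind it share that set, and both genes of a pair share the depth of the cell. All of these correlations were weak.

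**Figure D5:**
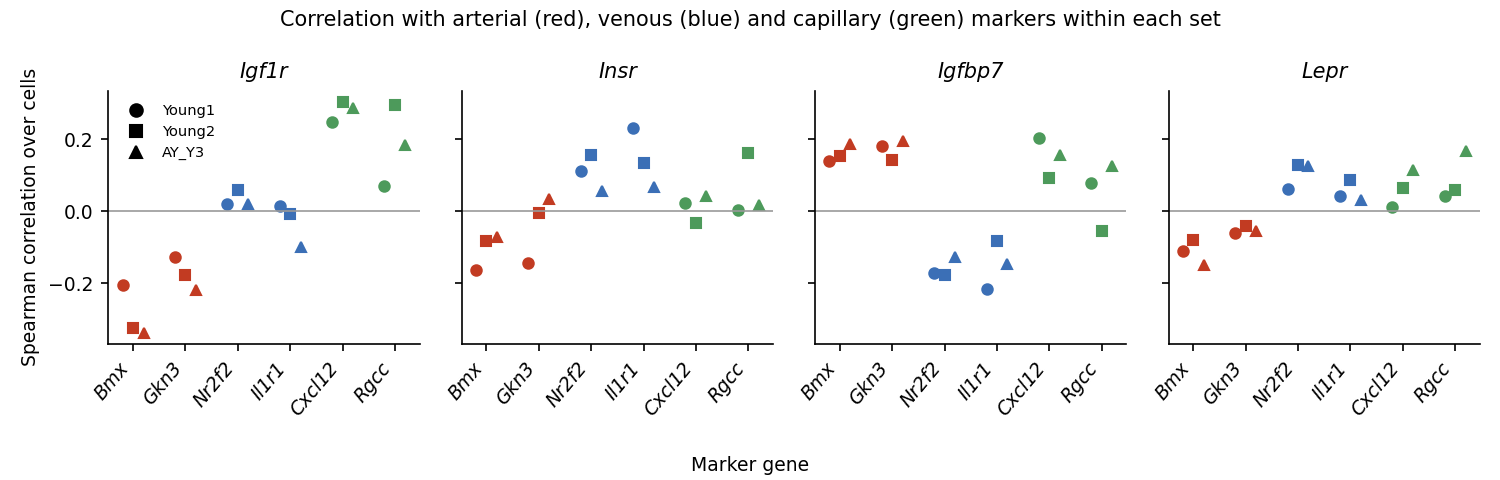
Spearman correlation over endothelial cells (vertical axis) between 4 genes and 6 segment markers, 1 symbol per set, in red for arterial, blue for venous and green for capillary markers. Igf1r is below 0 for both arterial markers and above 0 for both capillary markers in each set, and Igfbp7 is above 0 for arterial and below 0 for venous markers.

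Correlations between the receptors in single cells were weak. Insr and Igf1r had a count together in 37.3%, 46.6% and 49.2% of endothelial cells of Young1, Young2 and AY_Y3, against 34.7%, 43.2% and 47.7% from the product of their shares. Pearson's r of their log2(CPM + 1) was 0.21, 0.18 and 0.08 in these sets, and 0.20, 0.05 and 0.14 within capillary-marker cells. Igf1r was present in 15 of 15, 15 of 16 and 24 of 24 cells with Lepr, that is 100%, 93.8% and 100%, against an Igf1r share of 87.6%, 86.7% and 87.8% among all endothelial cells of the sets. Igfbp7 had a mean r of -0.03 with Igf1r and 0.05 with Insr. In sparse counts such weak correlations are no finding.

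Among 3992 genes detected in at least 20% of endothelial cells, Slc7a5, the light chain of the LAT1 amino acid transporter, was most like Igf1r (mean Spearman correlation over the sets 0.39). Spock2, itself on the capillary list, followed at 0.39 and Gatm, an enzyme of creatine synthesis, at 0.36, where the 95th percentile over all compared genes was 0.12. For Insr the leading genes were Tmsb4x (0.27), Slc22a8, an organic anion transporter (0.26), and Gatm (0.25), with a 95th percentile of 0.13. For Igfbp7 they included Ly6c1 (0.30) and B2m (0.20), with a 95th percentile of 0.07. Gatm was named for both receptors.

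Calls among the other pathway genes were about as rare as among all genes. Of 78 other genes listed (ligands, receptor partners, binding proteins, adaptors, kinases, phosphatases and transcription factors), 69 were in the table and 53 could be tested. Between arterial-marker and capillary-marker cells 0 of 53 passed by edgeR, against 0.454% of all genes, and 6 had an unadjusted p under 0.05. Between venous-marker and capillary-marker cells 0 of 53 passed, against 0% of all genes, and 2 had an unadjusted p under 0.05. Between arterial-marker and venous-marker cells 1 of the 53 passed, lower, against 1.32% of all genes, and 8 had an unadjusted p under 0.05. Of all 9030 genes tested, 862, 401 and 1065 had an unadjusted p under 0.05 in these 3 comparisons by the same edgeR fit. Median log2 differences of the list were -0.02, -0.13 and 0.00 in these 3 comparisons, against -0.06, -0.01 and -0.05 over all genes tested.

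That gene was Tbc1d4, the AKT substrate AS160, which holds back GLUT4 vesicles in muscle and fat until insulin acts. It had 168.3, 107.5 and 160.2 CPM of summed counts in arterial-marker cells of Young1, Young2 and AY_Y3, 446, 376 and 456 CPM in venous-marker cells and 337, 418 and 406 CPM in capillary-marker cells. Arterial values lay below all others, which overlapped. Tbc1d4 fell by 1.51 ± 0.23 on the log2 scale in arterial-marker against venous-marker cells (adjusted p = 0.0249), and the difference from capillary-marker cells was -1.43 ± 0.23 (adjusted p = 0.0577). The difference from venous-marker cells was below 0 in 16 of 16 alternatives (-4.03 to -1.09) and passed in 11. The alternatives that lost the call included -1.63 without Young1 (adjusted p = 0.0828), -1.40 without Young2 (0.224), -1.52 without AY_Y3 (0.285) and -1.09 without cells high in another type's markers (0.361).

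By role, the most abundant other genes per kb of exon were detected at levels between those of Igfbp7 and Lepr, apart from the ligands. Igf2 led the ligands at 0.97 CPM per kb and had a count in 3.75% of endothelial cells, and Igf1 had one in 0.556%. Leprot, which lies at the Lepr locus and affects receptor display at the surface, led the receptor partners at 196.9 CPM per kb. Htra1, a protease that cuts IGF-binding proteins, led its group at 30.2 CPM per kb, and Grb14, an adaptor that inhibits the insulin receptor kinase, led the other adaptors at 101.01 CPM per kb. Rheb, the activator of mTORC1, stood at 148.8 CPM per kb and Stat3, which carries leptin signals, at 45.4 CPM per kb. Ceacam1, which promotes insulin clearance in liver, led the restraints at 103.4 CPM per kb. Igf1 and Igf2 were not tested, and the other 6 genes named here did not pass in any of the 3 comparisons.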

How the data were processed

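The values were raw counts of reads per gene and cell, as deposited, without normalization (20607 symbols, 745 cells). Bowtie 0.12.2 and the builds mm8 and mm10 are named, with no role, in the submitters' processing notes; on counting, annotation and strand nothing is given in the sources used here.

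Members and gene lists were chosen with earlier results of these data known. All members are named; of the pathway list, genes past the threshold and the most abundant of each role; and the 3 genes most correlated with each member detected in at least 20% of cells, except 1 that is not reported here. Cells were clustered (scanpy 1.11.5, leidenalg 0.10.2; 2000 variable genes, 10 components, 15 neighbours, resolution 1), and a cluster with at least 3 markers of another type raised was left out; no doublet caller was run. Pair scores were means of log2(CPM + 1) scaled within each set; the class needed a score above 0 and a lead of 0.5. Counts per set and class gave 9 sums of 19201577 to 72868060 counts, fitted with edgeR 4.0.16 (TMM, set as block, R 4.3.3); Benjamini-Hochberg threshold 0.05. Genes passed edgeR's filter and had a count in 5% of endothelial cells; segment markers were left out. Cells are not replicates. Of the steps, the edgeR fit was tested on simulated counts, for arterial-marker against capillary-marker cells. The simulated sums held no differences between sets and were not built from single cells. Alternatives used DESeq2 1.42.0 and limma 3.58.1, among others. Leaving out cells above 1000 CPM on another type's markers was chosen after seeing the data.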

Additional observations from a re-analysis of the deposited data

How the results depend on the processing

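Each fit was repeated under 16 alternatives. Igf1r and Insr kept lower arterial values, and Igfbp7 higher ones, in all of them, but the arterial calls did not all hold. Of 16 alternatives, Igf1r passed in 10 against capillary-marker and 8 against venous-marker cells, and Igfbp7 passed in 8 against venous-marker cells. Besides single-set leave-outs and the leave-out of cells high in another type, Igf1r missed with a class margin of 0 (adjusted p = 0.0520 and 0.0990), a margin of 1 (0.0543 and 0.108) and, against venous-marker cells, long marker lists (0.0846) or no filter (0.0592). Igfbp7 missed with limma (0.263), a margin of 1 (0.0955), long lists (0.0759) and segment clusters (0.0771). The cause was not tested.

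Numbers of called genes moved more, given here as percents of the genes tested in each fit. Between arterial-marker and capillary-marker cells 0.454% of tested genes were called, 29.3% of them higher. The share was 7.86% with DESeq2, 6.72% with limma (80.6% of calls higher), 0.130% without the filter, 1.83% after thinning, 0.292% with a margin of 1, 0.882% with long lists, 1.31% with segment clusters, 0.101% without cells high in another type and 0.011% to 0.144% without a set. Between arterial-marker and venous-marker cells 1.32% were called, 51.3% of them higher. The share was 10.8% with DESeq2, 11.2% with limma (28.8% higher), 0.352% without the filter, 2.87% after thinning, 0.764% with a margin of 1, 0.882% with long lists, 0.673% without cells high in another type and 0.011% to 0.454% without a set. Between venous-marker and capillary-marker cells (0%) it was 2.23% with DESeq2, 8.41% with limma (98.3% higher) and 0.011% with segment clusters. In limma on mean log2 values the median of all genes lay at 0.18, 0.41 and -0.19 in arterial against capillary, venous against capillary and arterial against venous cells, so that its log2 differences are read against those values; without the filter it lay at -0.24 (arterial against capillary) and -0.13 (arterial against venous).

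Within each set, deviations from class means were correlated between pairs of classes over 9030 genes, with r from -0.004 to 0.048. Counts were sparse for many of these genes, so the check cannot tell whether the cells of a set shared an effect. Without the replicate block 0.709%, 0% and 1.56% of genes were called in arterial against capillary, venous against capillary and arterial against venous cells, and the calls of Igf1r and Igfbp7 held.

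Directions turned in differences that did not pass. Igf2r, arterial against capillary, was 0.15 with limma, 1.20 after thinning, 0.78 with a margin of 1, 1.24 with segment clusters, 0.031 without cells highest in mural markers and -0.31 to 0.54 without a set. Between venous-marker and capillary-marker cells it was -0.17 with long lists and -0.65 to 1.48 without a set, and between arterial-marker and venous-marker cells 0.51 after thinning, 0.16 with segment clusters and -1.66 to 0.34 without a set. Between venous-marker and capillary-marker cells, Insr was 0.46 with limma, against a median of 0.41 over all genes. In that comparison Lepr was -0.040 without the filter, -2.22 with long lists, -2.48 with segment clusters, -0.17 without cells high in another type and -0.33 to 0.85 without a set. Tbc1d4 there was -0.47 with long lists, -0.10 with segment clusters, -0.049 without cells high in another type and -0.046 to 0.25 without a set. The shares of cells moved by more than the spread between sets in 7 of 14 values, under a minimum of 10 counts or thinning.

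Lepr had 2 arterial sums at 0, and few cells had Igf2r or Irs1, so that differences of these genes that did not pass are not shown to be absent. At 50000 counts per cell the adjusted p of Lepr, arterial against capillary, was 0.125, against 0.143 at full depth.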
